A study of Mus musculus with 4 samples.

Results

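The proteasome subunit genes of mouse lung were described as the genes whose current symbol begins with Psma, Psmb, Psmc, Psmd or Psme followed by a number. Psmb8 and Psmb9, which are immunoproteasome subunits, were left out by the rule and are given separately. The rule found 43 genes with a probe among 32300 genes or transcripts on the array, and 42 of them were well above background on at least 1 array. All 42 were well above background on all 4 arrays, so no measured gene owed its place to a single group. The gene left out was Psmb11, the thymus-specific catalytic subunit, whose 2 probes were not well above background on any array.

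The RNA came from the lungs of female ICR mice aged 6 months, all of which had received urethane, a chemical lung carcinogen, at 1 g/kg intraperitoneally 16 weeks earlier. The 4 groups were the non-tumor lung of Nrf2+/+ mice, that of Nrf2-/- mice, lung tumors of 1.0 to 1.5 mm from Nrf2+/+ mice and lung tumors of 1.0 to 1.5 mm from Nrf2-/- mice. Nrf2, encoded by Nfe2l2, is the transcription factor that drives antioxidant and detoxification genes. Each group was 1 RNA pool of 8 mice on 1 single-color Agilent array. With no replicate arrays, the spread between mice is unknown and no pair of arrays could be tested, and no group was free of urethane.

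The proteasome is the cytosolic and nuclear protease that degrades ubiquitin-tagged proteins. Its 20S core is a barrel of alpha rings, which gate entry, and beta rings, which hold the catalytic sites. The 19S regulatory particle caps the core: an ATPase base unfolds substrates, and a lid removes ubiquitin. Alternative caps of the Psme family open the core without the 19S particle. In mammals the subunit genes are known to be raised together when proteasome activity is short, through the transcription factor Nrf1 (Nfe2l1), and some have also been described as Nrf2 targets in cells treated with antioxidants. The defining members of the gene set, Psma1, Psmb5 and Psmd1, gave processed signals of 8674 to 10135, 5668 to 6865 and 2194 to 2829 over the 4 arrays. The rule selects by symbol and signal, so these signals do not test the label of the set.

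All values below are log2 levels, meaning log2 of the processed signal minus the array's own 75th percentile, and a difference is one array's level minus another's. The 75th percentile signal was 760 and 742 in Nrf2+/+ and Nrf2-/- non-tumor lung against 555 and 584 in the tumors, and 63.5%, 62.1%, 56.2% and 54.2% of spots were well above background, so signals of the tumor arrays are scaled upward relative to the others. The error that the scanner software assigns to a spot amounted to about 0.20 on a difference, and it covers neither mice nor RNA preparation. The Nrf2+/+ non-tumor array was on 1 slide and the other 3 on a second one: every difference that uses Nrf2+/+ non-tumor lung therefore crosses slides, and those between the other 3 pools do not. Nfe2l2 gave signals of 7913 and 7478 in Nrf2+/+ non-tumor lung and tumor and was not well above background in either Nrf2-/- pool (5.13 and 6.94). The 6 alveolar type 2 markers had a median tumor difference of 1.31 in Nrf2+/+ and 0.98 in Nrf2-/- mice, while 5 endothelial markers stood at -1.65 and -1.10 and 6 cardiac muscle markers at -2.72 and -2.42. The part of these shifts in the proteasome values was not tested, and in such pools more cells of a type and more RNA per cell cannot be told apart.

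Proteasome genes varied little over the 4 arrays. The highest scaled level of a gene was a median of 1.34-fold above its lowest, from 1.07-fold to 2.32-fold. This range was under 1.5-fold for 32 of the 42 genes and under 2-fold for 41, the exception being Psmc3ip. Over the 16287 genes that were well above background on every array the median range was 1.50-fold, and 49.7% and 74.2% were under those marks. The lowest level was in Nrf2+/+ non-tumor lung for 30 genes, and the highest was in Nrf2-/- tumors for 25 and in Nrf2+/+ tumors for 12. This order rested on the scaling: with spike-in scaling Nrf2+/+ non-tumor lung was lowest for 19 genes and Nrf2-/- tumors for 15, and Nrf2-/- tumors were highest for 4. Nrf2+/+ non-tumor lung is also the pool that lies alone on its slide, so slide and group cannot be told apart for its low position. On the unscaled signal the median range was 1.24-fold.

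**Figure D1:**
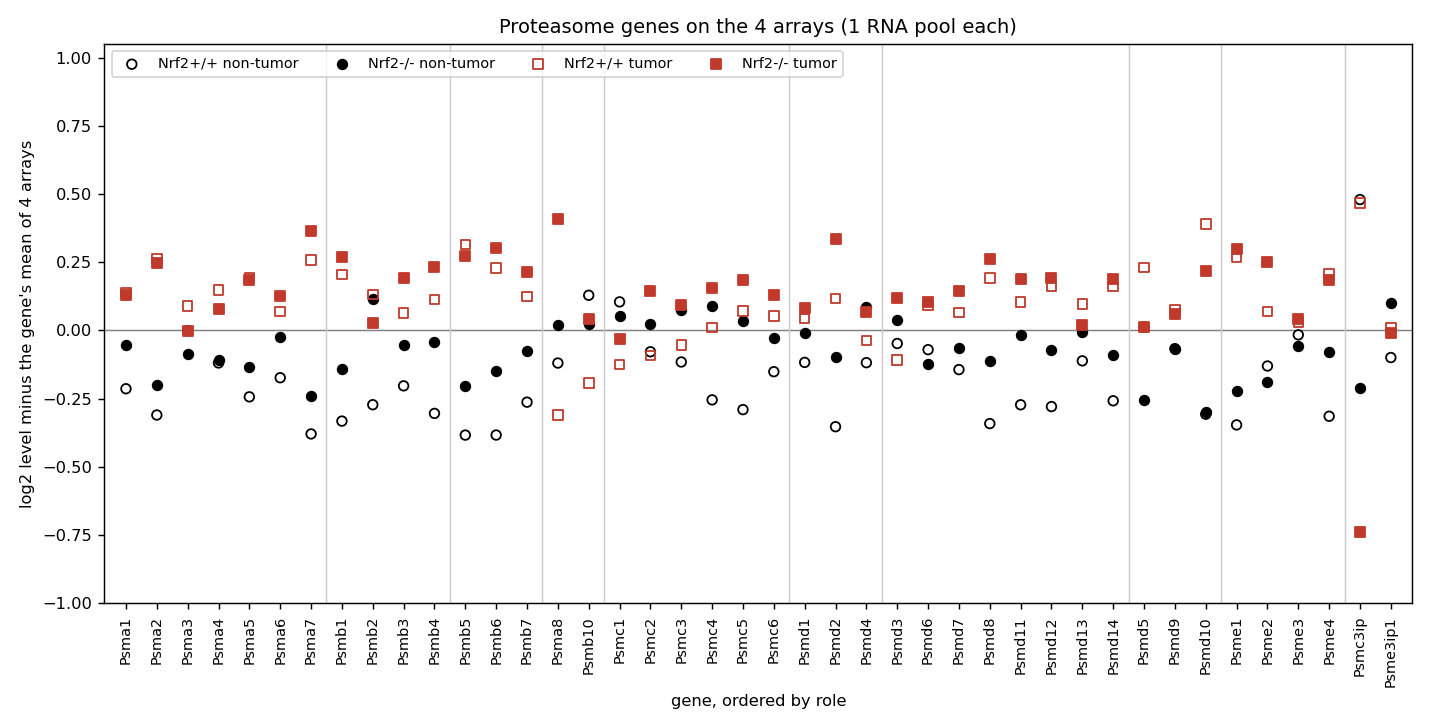
Log2 level of each of the 42 proteasome genes on the 4 arrays, as the difference from the gene's own mean over the arrays; genes are grouped by role, circles are non-tumor lung and squares tumors, open for Nrf2+/+ and filled for Nrf2-/-. Nrf2+/+ non-tumor lung is the lowest point for 30 genes (19 with spike-in scaling), Psmb10 and Psmc1 are highest there, and Psmc3ip is split by genotype.

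The first question was how proteasome genes differed between urethane-induced tumors and the lung around them. In Nrf2+/+ mice the median difference of the 42 genes was 0.27 (0.06 with spike-in scaling and 0.56 with scaling on the array median), with 36 genes above 0, beside a background of 47.9% of all 19913 genes measured. Psmb10 stood lowest at -0.32 and Psmb5 highest at 0.70. No proteasome gene reached 2-fold in either direction, against 8.08% of all genes past that mark on the higher and 15.3% on the lower side. In all, 5 reached 1.5-fold higher (background 16.8%) and none reached 1.5-fold lower (background 25.2%). The count of 5 became 19 with scaling on the array median, 2 with normexp background correction, 1 with quantile normalization and 0 with spike-in scaling. The set therefore lay a small distance above the all-gene median of -0.03, and its spread (robust SD 0.26) was below that of all genes (0.71) and of the 3357 genes in the middle of its level range (0.49).

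In Nrf2-/- mice the tumor difference had a median of 0.21, which became -0.07 when arrays were scaled on their spike-in controls, and 37 genes were above 0 (background 47%). None reached 2-fold (background 5.43% higher and 9.12% lower), and 1, Psma7, reached 1.5-fold higher (background 11%), with none 1.5-fold lower (background 17.4%); 6 reached 1.5-fold higher with scaling on the array median. Relative to the all-gene median, which does not depend on the scaling constant, the proteasome median was 0.30 higher in Nrf2+/+ and 0.24 higher in Nrf2-/- mice, with 38 of 42 genes above that median in each. The 2 tumor comparisons share no array, and the Nrf2-/- one lies within a slide. In both, 33 genes were above 0 (background 42.4% of 16287 genes), 2 were below 0 in both (background 37.3%) and 7 were opposite in sign (background 20.3%). The difference was larger than the software error for 28 of 42 genes in Nrf2+/+ mice (background 72.1%) and for 23 in Nrf2-/- mice (background 59.3%). The 3357 genes of the middle level range had medians of 0.19 and 0.10, and 28 and 29 proteasome genes lay above these.

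**Figure D2:**
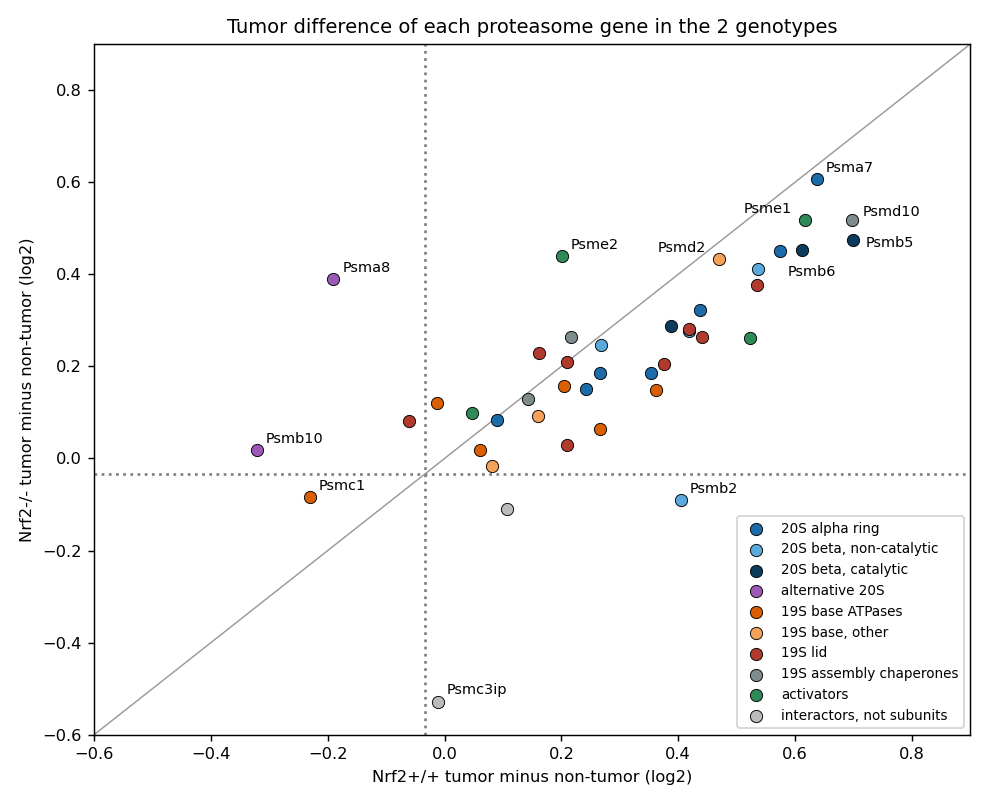
Tumor minus non-tumor log2 difference of each proteasome gene in Nrf2+/+ mice (x axis) and Nrf2-/- mice (y axis), colored by role; the diagonal marks equal differences and the dotted lines the median of all genes measured. Most genes lie in the upper right below the diagonal, with Psma7 at 0.64 and 0.61, and 9 of 42 lie above it; with spike-in scaling all points move by -0.20 on the x axis and -0.28 on the y axis.

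The alpha ring subunits, which form the outer rings and the gate of the core, were above 0 in both genotypes for 7 of 7 genes, with medians of 0.35 in Nrf2+/+ and 0.19 in Nrf2-/- mice (the latter -0.09 with spike-in scaling). Psma7 had the largest difference of the ring in both, with levels of 3.62 in Nrf2+/+ non-tumor lung, 3.75 in Nrf2-/- non-tumor lung, 4.25 in Nrf2+/+ tumors and 4.36 in Nrf2-/- tumors. Both tumor pools thus lay above both non-tumor pools, by 0.64 in Nrf2+/+ and 0.61 in Nrf2-/- mice. Psma2 likewise had both tumor pools above both non-tumor pools, with 5.42 and 5.53 in non-tumor lung and 6.00 and 5.98 in tumors. Psma1, a defining member, stood at 3.61 and 3.77 in Nrf2+/+ and Nrf2-/- non-tumor lung and at 3.97 and 3.96 in the tumors, a difference of 0.35 and 0.18. Psma3 was the alpha subunit with the smallest difference, 0.09 and 0.08, which is within the software error.

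The 3 constitutive catalytic subunits had the highest medians of any role in the tumor comparisons, 0.61 in Nrf2+/+ and 0.45 in Nrf2-/- mice, and stayed above 0 with each scaling tried. Psmb5 carries the chymotrypsin-like site, and its levels were 2.90 and 3.08 in Nrf2+/+ and Nrf2-/- non-tumor lung and 3.60 and 3.55 in the corresponding tumors. Psmb6, with the caspase-like site, had 4.47 and 4.70 in non-tumor lung and 5.08 and 5.15 in tumors. Psmb7, with the trypsin-like site, had 2.71 and 2.90 in non-tumor lung and 3.1 and 3.18 in tumors. For each of the 3 genes, both tumor pools were above both non-tumor pools. The differences were 0.70 and 0.48 for Psmb5, 0.61 and 0.45 for Psmb6 and 0.39 and 0.29 for Psmb7, in Nrf2+/+ and Nrf2-/- mice.

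Because the study turns on Nrf2, the promoters of these subunits were read for the core of the antioxidant response element, TGACNNNGC on either strand, to which Nrf2 and Nrf1 bind with small Maf proteins. The 250 bases before the start of Psmb5 (chr14:54617996-54618245, minus strand), Psmb6 (chr11:70525107-70525356, plus strand) and Psma7 (chr2:180042465-180042714, minus strand) are shown 5′ to 3′ from RefSeq on GRCm38.p6, with matches in capitals. They are the 2 catalytic subunits with a promoter sequence, which also had the largest tumor differences of the 3. For contrast, the alpha subunit with the largest one is shown, which has no match.
Psmb5: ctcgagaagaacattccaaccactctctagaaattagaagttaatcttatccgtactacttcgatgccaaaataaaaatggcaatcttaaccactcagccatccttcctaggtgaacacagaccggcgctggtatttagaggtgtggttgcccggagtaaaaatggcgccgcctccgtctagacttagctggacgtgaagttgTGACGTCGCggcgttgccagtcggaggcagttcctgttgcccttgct
Psmb6: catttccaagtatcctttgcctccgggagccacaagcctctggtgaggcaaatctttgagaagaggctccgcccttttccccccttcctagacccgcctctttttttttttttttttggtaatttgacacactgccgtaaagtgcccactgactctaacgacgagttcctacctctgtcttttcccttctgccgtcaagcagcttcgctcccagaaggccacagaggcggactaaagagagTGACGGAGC
Psma7: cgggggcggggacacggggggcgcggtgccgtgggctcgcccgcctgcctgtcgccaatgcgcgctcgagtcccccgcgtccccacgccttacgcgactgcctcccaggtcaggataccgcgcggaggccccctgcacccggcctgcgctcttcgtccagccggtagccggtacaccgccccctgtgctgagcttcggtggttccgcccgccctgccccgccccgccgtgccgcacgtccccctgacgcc
The match in Psmb5 lies 47 to 39 bases before the start and that in Psmb6 9 to 1 bases before it. Promoter windows of 300 bases, from 250 before to 50 after the start, were matched for 35 of the 42 genes, and 6 of them (17.1%) held the element against 14% of 27025 genes. The other 4 were Psmd9, Psmc6, Psmd12 and Psme4, and none of the 7 alpha subunits held one. Psmb7 was among the genes without a window, so only 2 of the 3 catalytic subunits could be read. The 6 genes with a match had median tumor differences of 0.48 and 0.26 in Nrf2+/+ and Nrf2-/- mice, and the 29 without one 0.27 and 0.19. Their genotype differences had medians of 0.19 in non-tumor lung and 0.01 in tumors, against 0.11 and 0.04. The CCAAT box, bound by NF-Y and searched as CCAAT on either strand, was found in 14 of 35 (40%), near the 41.1% of all genes, and in 5 of the 7 alpha subunits.

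The non-catalytic beta subunits, which complete the inner rings, had medians of 0.41 and 0.26 (the latter -0.02 with spike-in scaling). Psmb1 had the largest differences, 0.54 and 0.41, followed by Psmb4 with 0.42 and 0.28 and Psmb3 with 0.27 and 0.25. Psmb2 went apart from these, with levels of -1.17 in Nrf2+/+ non-tumor lung, -0.78 in Nrf2-/- non-tumor lung, -0.76 in Nrf2+/+ tumors and -0.87 in Nrf2-/- tumors. Only the Nrf2+/+ non-tumor pool was low, so its tumor difference was 0.40 in Nrf2+/+ and -0.09 in Nrf2-/- mice. The Psmb2 probe was dim, at 320 to 433 signal units, and no other probe of the gene was present.

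The alternative core subunits did not follow the constitutive ones. Psmb10, the immunoproteasome counterpart of Psmb7, had levels of 4.06 and 3.96 in Nrf2+/+ and Nrf2-/- non-tumor lung and of 3.74 and 3.98 in the tumors. It was lowest in the Nrf2+/+ tumors, 0.32 below their non-tumor lung (0.03 below with scaling on the array median), while the Nrf2-/- pools differed by 0.02. This Nrf2-/- difference depended on the setting, at -0.26 with spike-in scaling, -0.17 with quantile normalization and 0.15 with scaling on the array median. Psmb8 and Psmb9, the immunoproteasome subunits that the rule leaves out, stood at -0.47 and -0.93 in the Nrf2+/+ tumor comparison and at 0.30 and -0.01 in the Nrf2-/- one. A second bright probe of Psmb8 gave -0.11 and 0.19, and by genotype in non-tumor lung the probes of Psmb8 were opposite in sign, at -0.46 and 0.49. The 9 genes of the immunoproteasome and class I presentation list had medians of -0.64 and -0.01, and all 9 lay below 0 in the Nrf2+/+ comparison. Summed signals of 4 T and NK cell markers were 3232 and 3502 in Nrf2+/+ and Nrf2-/- non-tumor lung and 1273 and 2076 in tumors, and those of 3 macrophage markers 20614 and 29918 against 7769 and 17332. The sums of 4 B and plasma cell markers went another way, at 7359 and 5451 in non-tumor lung against 4614 and 8474 in tumors, and were highest in Nrf2-/- tumors. These sums are unscaled signals. On the scaled levels all 4 T and NK markers were below 0 in the Nrf2+/+ tumor comparison, with a median of -0.59, but the macrophage markers ran from -1.61 for Marco to 0.31 for Mrc1. The part of any of these lists in the Psmb10 level was not tested. Psma8, the testis-type alpha subunit, gave a dim signal of 193 and 208 in Nrf2+/+ and Nrf2-/- non-tumor lung and of 124 and 214 in tumors, with a tumor difference of -0.19 in Nrf2+/+ (0.10 with scaling on the array median) and 0.39 in Nrf2-/- mice.

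By its median over base and lid, the 19S particle showed smaller tumor differences than the core. In Nrf2-/- mice, however, the lid median of 0.22 was above the 0.19 of the alpha ring. The 6 base ATPases, the ring that unfolds substrates, had medians of 0.13 and 0.09, which became -0.07 and -0.19 with spike-in scaling and -0.04 and -0.07 with quantile normalization. On its brightest probe Psmc5 had the largest difference in Nrf2+/+ mice, with levels of 1.54 and 1.87 in Nrf2+/+ and Nrf2-/- non-tumor lung and 1.90 and 2.01 in tumors. Its second probe gave tumor differences of 0.08 in Nrf2+/+ and -0.08 in Nrf2-/- mice. With normexp Psmc5 was at 0.11 in Nrf2+/+ mice, below Psmc4 at 0.42. Psmc1, whose product opens the core gate, was lower in tumors of both genotypes, with 3.71 and 3.66 in non-tumor lung and 3.48 and 3.57 in tumors, differences of -0.23 and -0.08 (0.06 and 0.05 with scaling on the array median). It was 1 of the 2 members below 0 in both comparisons, and the second was Psmc3ip.

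The 3 other base subunits, which receive ubiquitinated substrates, had medians of 0.16 and 0.09 (-0.04 and -0.19 with spike-in scaling). Psmd2 stood out from them, with levels of 3.59 and 3.84 in Nrf2+/+ and Nrf2-/- non-tumor lung and 4.06 and 4.27 in tumors, differences of 0.47 and 0.43. Psmd1, a defining member, had 1.82 and 1.93 in non-tumor lung and 1.98 and 2.02 in tumors, differences of 0.16 and 0.09 that are within the software error. The ubiquitin receptor Psmd4 had differences of 0.08 and -0.02. The 8 lid subunits had medians of 0.29 and 0.22 (the latter -0.06 with spike-in scaling) and 7 of 8 were above 0 in both genotypes. Psmd8 had the largest difference in both genotypes, 0.53 and 0.38, and Psmd14, the deubiquitinase of the lid, had 0.42 and 0.28. Psmd3 was the exception at -0.06 and 0.08.

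Set against each other, the core had the larger tumor difference. The median of the 16 core genes was above that of the 17 base and lid genes by 0.19 in Nrf2+/+ and 0.13 in Nrf2-/- mice. With the 14 constitutive core genes alone this was 0.20 and 0.13. Of those 14, 13 and 12 lay above the base and lid median, whereas 4 and 2 of the 17 base and lid genes lay above the median of the 14. Unlike the level of each group, this contrast did not depend on a scaling constant, and it ranged from 0.08 to 0.23 and from 0.06 to 0.19 over the settings tried. The ranges of the groups overlapped: in Nrf2+/+ mice the 14 core genes ran from 0.09 to 0.70 and the base and lid genes from -0.23 to 0.53.

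The 3 assembly chaperones of the 19S base, which carry Psmd symbols but leave the finished particle, had medians of 0.22 and 0.26 (the latter -0.01 with spike-in scaling). Psmd10, also known as gankyrin, led them with levels of -1.58 and -1.57 in Nrf2+/+ and Nrf2-/- non-tumor lung and -0.88 and -1.05 in tumors. Its tumor differences of 0.70 and 0.52 were the second highest of the set in both genotypes, on a dim probe of 250 to 302 signal units. Psmd5 had 0.22 and 0.26, and Psmd9 0.14 and 0.13. A second probe of Psmd9 was opposite in sign, at -0.07 in Nrf2+/+ and -0.06 in Nrf2-/- mice.

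The activators, which cap the core in place of the 19S particle, had medians of 0.36 and 0.35, above 0 with each scaling tried. Psme1, 1 of the 2 subunits of the interferon-inducible PA28 ring, had levels of 5.26 and 5.38 in Nrf2+/+ and Nrf2-/- non-tumor lung and 5.87 and 5.90 in tumors. Its partner Psme2 had 5.57 and 5.51 in non-tumor lung and 5.77 and 5.95 in tumors. Both tumor pools were above both non-tumor pools for each partner, by 0.62 and 0.52 for Psme1 and by 0.20 and 0.44 for Psme2. For Psme2 the Nrf2+/+ difference became -0.14 with quantile normalization and -0.00 with spike-in scaling. Psme4, which encodes PA200, had 4.46 and 4.70 in non-tumor lung and 4.98 and 4.96 in tumors, differences of 0.52 and 0.26 (the latter -0.02 with spike-in scaling). Psme3, the nuclear PA28 subunit, had levels of -0.48 and -0.52 in Nrf2+/+ and Nrf2-/- non-tumor lung and of -0.43 and -0.42 in tumors, with no difference past the software error.

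The second question was whether proteasome genes differed with the Nrf2 genotype. In non-tumor lung the median of Nrf2-/- minus Nrf2+/+ was 0.14, with 33 of 42 genes above 0 (background 52.1% of 20190 genes). None reached 2-fold (background 3.04% higher and 4.61% lower), none was 1.5-fold higher (background 7.01%) and 1, Psmc3ip, was 1.5-fold lower (background 10.2%). In tumors the median was 0.06, and -0.04 with spike-in scaling, with 28 genes above 0 (background 46.3% of 17824 genes). Psmc3ip was 2-fold lower there (background 3.67%) and none was 2-fold higher (background 4.29%), while Psma8 was the 1 gene past 1.5-fold higher (background 9.21%) and Psmc3ip the 1 past 1.5-fold lower (background 7.94%). With normexp these became -0.65 for Psmc3ip and 0.42 for Psma8, which ends the 2-fold call of the first and the 1.5-fold call of the second. In both tissues, which share no array, 23 genes were above 0 (background 30.7% of 16287 genes), 4 were below 0 (background 26.9%) and 15 were opposite in sign (background 42.4%). The difference was larger than the software error for 13 of 42 genes in non-tumor lung (background 49.5%) and for 7 in tumors (background 46.7%). The lowest value of a constitutive core, base or lid subunit was -0.08 in non-tumor lung (Psma3) and -0.11 in tumors (Psmb2). These depended on the setting: in non-tumor lung Psmc1 was at -0.23 with normexp and -0.18 with quantile normalization. In tumors Psmb2 was at -0.21 with spike-in scaling.

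For the catalytic subunits the genotype differences were 0.18 and -0.04 for Psmb5, 0.24 and 0.07 for Psmb6 and 0.19 (-0.05 with normexp) and 0.09 for Psmb7, in non-tumor lung and in tumors. The ATPases Psmc4 and Psmc5 had the highest values of the base in non-tumor lung, 0.34 and 0.33, and 0.14 and 0.11 in tumors. For Psmc4 the levels were 3.36 and 3.70 in Nrf2+/+ and Nrf2-/- non-tumor lung and 3.62 and 3.76 in tumors, but its second probe gave a non-tumor genotype difference of 0.04. The second probe of Psmc5 gave 0.12, and normexp gave -0.02 on the brighter one. Psmc2 had 0.10 in non-tumor lung and 0.24 in tumors. Psmd5 was lower in the Nrf2-/- pool of both tissues, by -0.27 and -0.22, with levels of 1.66 and 1.39 in Nrf2+/+ and Nrf2-/- non-tumor lung and of 1.87 and 1.65 in tumors. With normexp its differences were -0.06 in non-tumor lung and -0.18 in tumors. Psmb10 and Psma8 stood at 0.23 and 0.72 in the tumor genotype comparison and at -0.11 and 0.14 in that of non-tumor lung.

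**Figure D3:**
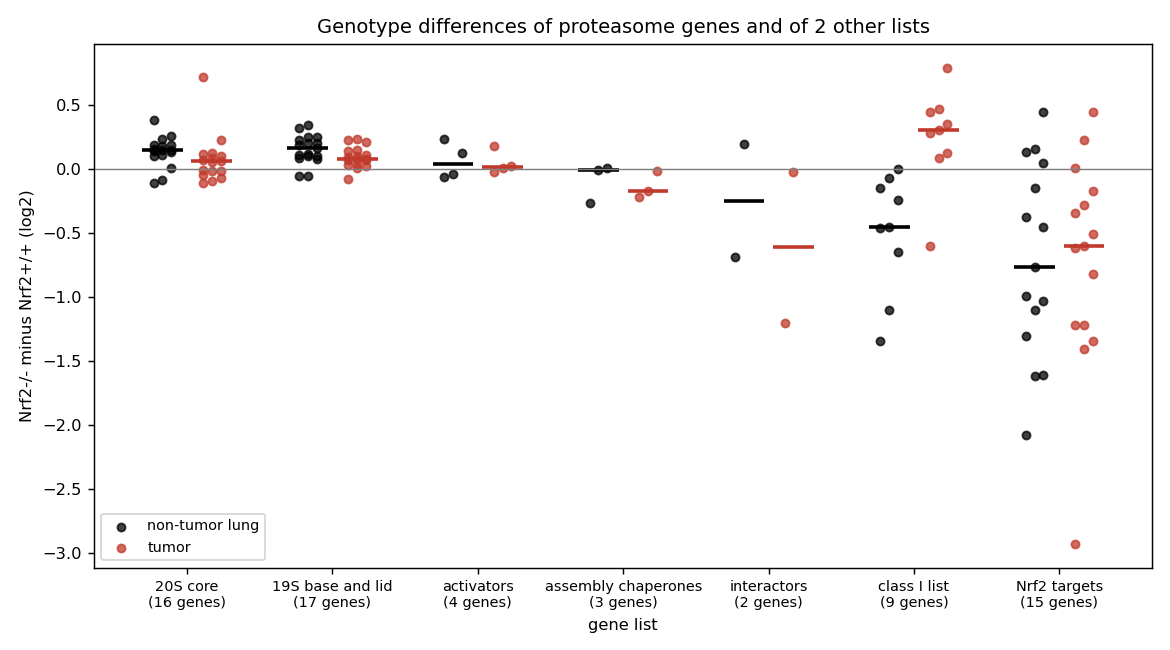
Nrf2-/- minus Nrf2+/+ log2 difference of single genes in non-tumor lung (black) and in tumors (red) for proteasome groups, the class I presentation list and Nrf2 target genes, with the median of each list as a bar. The core and the base and lid lie near 0, with medians of 0.15 and 0.17 in non-tumor lung and 0.06 and 0.08 in tumors (-0.04 and -0.02 with spike-in scaling), whereas Nrf2 targets have medians of -0.77 and -0.60.

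The contrast of core and 19S particle was smaller by genotype than by tissue: the core median minus the base and lid median was -0.02 in both tissues. In non-tumor lung it turned to 0.02 when all probes of each gene were averaged. With the 14 constitutive core genes alone it was -0.01 in non-tumor lung and -0.06 in tumors. In tumors 4 of those 14 lay above the base and lid median, and 15 of the 17 base and lid genes lay above the median of the 14. In non-tumor lung these counts were 6 and 9. Over the settings tried the tumor contrast ranged from -0.06 to -0.01. For comparison, 15 Nrf2 target genes had medians of -0.77 in non-tumor lung and -0.60 in tumors. Of these, 6 and 5 were at least 2-fold lower in the Nrf2-/- pool (background 4.61% and 3.67%), among them Gpx2, a glutathione peroxidase, at -2.08 and -2.93. Some targets were higher in the Nrf2-/- pool. In non-tumor lung these were Slc7a11 at 0.45, Pgd at 0.16, Hmox1 at 0.14 and Gclm at 0.05. In tumors they were Gclc at 0.45, Hmox1 at 0.23 and Slc7a11 at 0.01. Slc7a11 was well above background on only 2 arrays. Its signals were 9.09 and 12.1 in Nrf2+/+ and Nrf2-/- non-tumor lung, against 51.1 and 54.1 in tumors, so its non-tumor difference rests on very dim signals. Nfe2l1, which encodes Nrf1, differed by 0.21 and 0.19 between genotypes and by 0.08 and 0.06 between tumor and non-tumor lung of Nrf2+/+ and Nrf2-/- mice.

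Psmc3ip was the member with the largest range, and it is no proteasome subunit but a recombination cofactor named for its interaction with Psmc3. Its levels were -1.76 in Nrf2+/+ non-tumor lung, -2.45 in Nrf2-/- non-tumor lung, -1.77 in Nrf2+/+ tumors and -2.97 in Nrf2-/- tumors. Both Nrf2-/- pools were below both Nrf2+/+ pools, by -0.69 in non-tumor lung and -1.20 in tumors. Its signals were 225, 136, 163 and 74.3, and a second probe ran the same way, at -0.42 and -0.88. Psme3ip1, the second interactor, had differences of 0.20 and -0.02 between genotypes on its brightest probe. A dimmer Psme3ip1 probe disagreed, with signals of 35.4, 57.8, 25.7 and 205 and a tumor genotype difference of 2.92, and was not well above background in Nrf2+/+ tumors, so no direction is given for this gene. Among the 12 members with at least 2 bright probes, the probes of a gene differed by a median of 0.10 to 0.22 over the 4 comparisons and by at most 0.34, and had opposite signs for 2 to 4 of them.

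Other genes of the pathway lay close to the subunits. The 18 assembly factors and proteasome-bound proteins had median tumor differences of 0.20 and 0.07 (-0.01 and -0.21 with spike-in scaling). Pomp, the maturation factor of the core, had 0.30 and 0.24, and the core chaperone Psmg1 0.55 and 0.36. Ecpas, a proteasome adaptor, had the highest value in Nrf2+/+ mice at 0.99 and 0.17 in Nrf2-/- mice, and the ubiquitin shuttle Ubqln2 the lowest at -0.24 and -0.14. The 11 ubiquitin genes and first enzymes had medians of 0.46 and 0.29, with 11 and 10 above 0. The activating enzyme Uba6 stood at 0.98 and 0.50 and the unfoldase Vcp at 0.66 and 0.50.

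Lists of other multi-subunit complexes had median tumor differences close to or above that of the proteasome. The COP9 signalosome, built like the lid, had 0.34 and 0.26 over 9 genes, the eIF3 translation factor 0.39 and 0.26 over 13, and the CCT chaperonin 0.43 and 0.23 over 8. With spike-in scaling the Nrf2-/- medians of these 3 complexes were -0.02, -0.02 and -0.05. The 12 reference genes had 0.34 and 0.29, 74 ribosomal protein genes 0.66 and 0.31, and 81 oxidative phosphorylation genes 0.53 and 0.34. The 42 proteasome genes, at 0.27 and 0.21, lay below each of these list medians, but not in every setting. With normexp eIF3 was at 0.24 against 0.26 in Nrf2+/+ mice and CCT at 0.15 against 0.18 in Nrf2-/- mice. In Nrf2-/- mice eIF3 was at 0.13 against 0.19 with all probes of a gene, and at 0.074 against 0.077 with quantile normalization. The distances were not tested. The 9 cell cycle genes measured had 1.10 and 0.25.

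**Figure D4:**
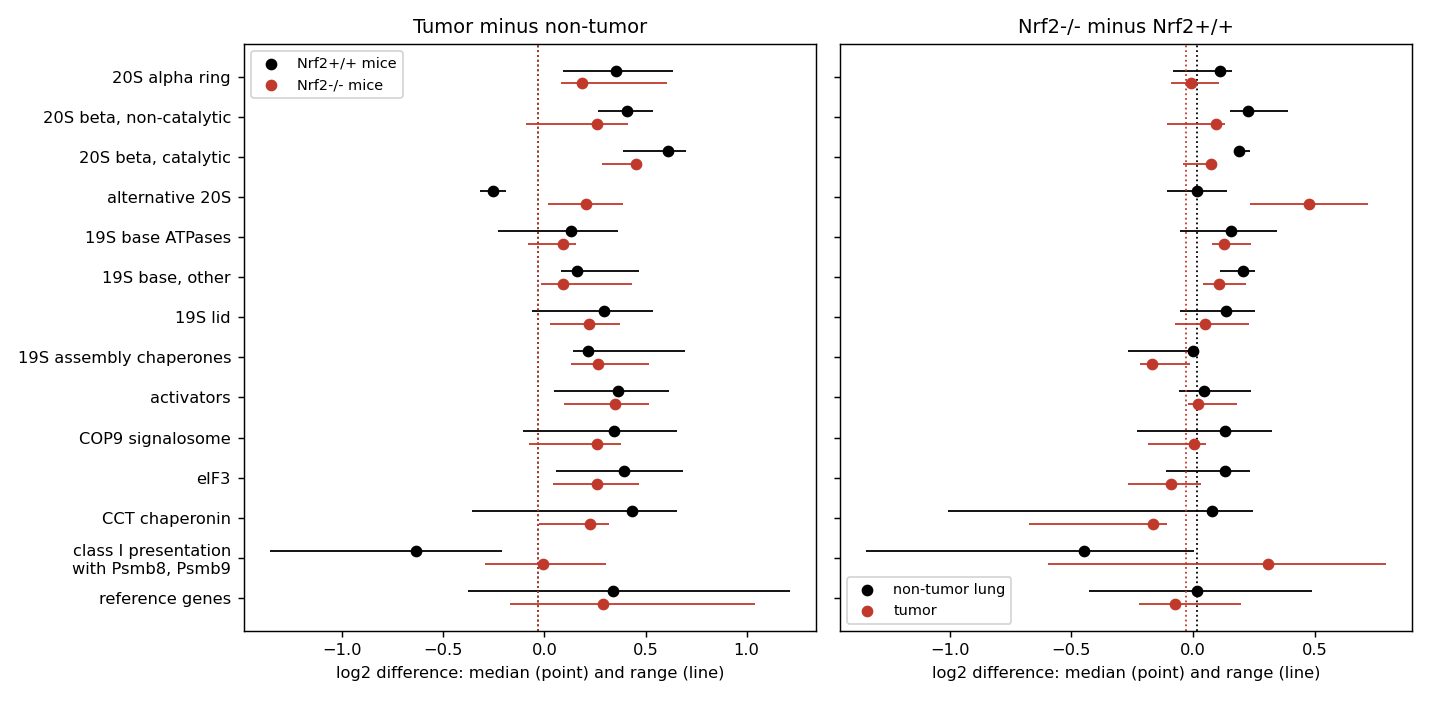
Median (point) and range (line) of the log2 difference of each proteasome role and of comparison lists, for tumor minus non-tumor lung (left) and Nrf2-/- minus Nrf2+/+ (right); dotted lines mark the median of all genes in each comparison. The catalytic beta subunits have the highest proteasome medians on the left, 0.61 and 0.45, the COP9 signalosome, eIF3 and CCT lists overlap the proteasome roles, and the class I list has a median of -0.64 in Nrf2+/+ and -0.01 in Nrf2-/- mice; with spike-in scaling the Nrf2-/- tumor medians of most roles fall just below 0.

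The only test the design allowed was an additive limma fit of tissue and genotype over the 4 arrays, with 1 residual degree of freedom and 20553 genes. No proteasome gene passed an adjusted p of 0.05 for tissue or genotype, and neither did any other gene (0% called in both). At an unadjusted p under 0.05, 6 of 42 passed for tissue, all higher in tumors (Psma7, Psmd10, Psmb5, Psme1, Psmb6 and Psma2), beside 29.7% of all genes. Psma7 had the smallest tissue p, with an estimate of 0.62 (SE 0.15) and an adjusted p of 0.12 by limma with Benjamini-Hochberg adjustment, and it was higher in 2 of 2 tumor comparisons. For genotype 1 of 42 passed at an unadjusted p under 0.05, beside 9.29% of all genes. This was Psmc3ip, with an estimate of -0.95 (SE 0.21) and an adjusted p of 0.43, lower in 2 of 2 tissues. These p-values weigh each estimate against an error from the departure of 4 pools from additivity, moderated by a variance shared over genes. They do not measure the spread between mice.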

How the data were processed

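RNA (500 ng per pool) was labelled with Cy3, per the labels' protocols, and read with Agilent Feature Extraction 10.7.3.1 on array design 014868, annotated on mm9, per the file headers. The values used were the software's processed signal intensity, background-subtracted per the file headers and deposited on a linear scale. The deposited series value table matched them within 0.5%.

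Signals were turned into log2 levels by subtracting each array's 75th percentile of log2 signal, so these log2 values were computed here from the authors' deposited intensities. Control spots and outlier spots were left out, spots of a probe averaged, and the brightest probe taken per gene. Probes were named by accession through a RefSeq gene table (GRCm38.p6): 26686 of 41174 had a symbol. A difference was counted as measured where a gene was well above background in at least 1 of its 2 arrays. Differences between 2 arrays have no test; limma 3.58.1 (R 4.3.3) fitted tissue and genotype as additive terms and was tested on simulated data. The number of arrays, not depth, limits the precision.

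Genes named with values on every array were the defining members, catalytic and alternative subunits, activators and the 3 highest and 3 lowest of each comparison; others are named with a difference. The members and gene lists were chosen with earlier results of these data known. Alternatives were scaling on the array median, quantile normalization, spike-in scaling (7 of 10 spike-in probes), normexp background correction, all probes of a gene, and other filters. The planned mean-signal column for normexp was not in the files used here, so the median signal served. The core without Psma8 and Psmb10, the set without its 2 interactors, and subtraction of the all-gene median were added after seeing the data.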

Additional observations from a re-analysis of the deposited data

How the results depend on the processing

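Of the values recomputed under 9 alternatives, 26 could not change or came out identical, since a scaling constant cancels in differences between lists and the stricter filter removes no member. Of the rest, 61 kept their direction, or for calls in the limma fit their count, with untested values within 0.204 of the reported one. Another 4 reversed, 1 moved further and 2 became stronger. The 0.204 is the software error and exceeds many of the values compared, so staying within it is a weak criterion. With spike-in scaling the median of the 42 genes became -0.0713 for Nrf2-/- tumors against non-tumor lung (0.207 as reported) and -0.0382 for the tumor genotype comparison (0.062 as reported). With scaling on the array median the Nrf2+/+ tumor median was 0.559 in place of 0.266, and with spike-in scaling 0.0627. These 2 settings move every gene by a constant: the all-gene median shifted by -0.20 and -0.28 in the tumor comparisons with spike-in scaling, and by 0.29 and 0.14 with the array median, which put 26 and 14 against 41 and 41 members above 0. Relative to the all-gene median the proteasome median stayed positive over the settings tried, at 0.122 to 0.3 and 0.102 to 0.241 in the tumor comparisons and 0.0469 to 0.13 and 0.0499 to 0.0893 in the genotype comparisons. The core minus regulatory median in non-tumor lung by genotype, -0.0163 as reported, was 0.0232 with all probes of a gene and 0.00661 with normexp; the cause was not tested. In the limma fit, 2 members passed for tissue when genes had to be well above background on all 4 arrays (Psma7, adjusted p 0.040, and Psmd10, 0.046) and 1 with normexp (Psma7, adjusted p 0.048). Over all genes, tissue calls were 0 as reported, 0 with quantile normalization and with all probes, 769 with no filter, 2155 with the array median, 2879 with spike-in scaling, 3176 with normexp and 3852 with the stricter filter. Genotype calls over all genes were 0 as reported, 78 with the array median, 53 with normexp, 150 with the stricter filter and 0 or 1 otherwise, with no member among them. No paired analysis was possible because each group has 1 array and the groups share no replicate number, and no array could be left out because 3 arrays leave no residual degree of freedom.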
